A study of Homo sapiens with 4 samples.

Results

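Chromosome 17 from 25 Mb onward, in essence its long arm and called 17q here, carried 935 of the 25514 H4K20me1 peaks listed for Kasumi-1, an established cell line of acute myeloid leukemia that carries the t(8;21) translocation. Members were the peaks on chromosome 17 whose start lay above 25 Mb (hg38). They are set beside the 112 peaks of chromosome 17 below that limit, called 17p, and the 24467 peaks of all other sequences. The stretch was selected on the deposited fold changes themselves, which were low there, so their lowness is a description here and was given no test. The series held 4 CUT&Tag libraries, 2 from cells with SETD8 knocked out by CRISPR/Cas9 (sgSETD8) and 2 from cells labelled sgNT and WT, and the labels name no drug treatment. The labels do not say whether the 2 libraries of a group are separate cultures or clones. The table gave 1 value per group and no replicate, and no header states which group is listed first. By its name the comparison sets treated over control, but that name is not tied to the columns, so the groups are called first-listed and second-listed. All differences are deposited log2 fold changes of first-listed over second-listed reads.

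H4K20me1 is the monomethylated form of lysine 20 of histone H4. It is placed by SETD8, now named KMT5A, builds up toward mitosis, and is the substrate from which KMT5B and KMT5C make the di- and trimethylated forms. In many cell types it is found over the bodies and starts of active genes and on the inactive X chromosome. In CUT&Tag an antibody brings the Tn5 transposase to marked chromatin, and the released fragments are sequenced. The long arm of chromosome 17 holds the HOXB cluster, the type I keratins, a chemokine cluster and the retinoic acid receptor gene RARA.

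Promoter sequences are shown for genes at both ends of the range with a peak that overlapped the window around the RefSeq start site. NR1D1 and GALK1 had the lowest promoter peaks of at least median signal on 17q, and TRIM25 the highest. The highest peak of TRIM25 (0.89) did not reach the window shown, which its second peak (0.59) overlapped. Each sequence runs 5′ to 3′ from 250 bases before to 50 bases after the start, on the minus strand of GRCh38.p14. Capitals mark the 50 bases from the start onward. NR1D1 lies at chr17:40100540-40100839, GALK1 at chr17:75765143-75765442 and TRIM25 at chr17:56914000-56914299.
NR1D1: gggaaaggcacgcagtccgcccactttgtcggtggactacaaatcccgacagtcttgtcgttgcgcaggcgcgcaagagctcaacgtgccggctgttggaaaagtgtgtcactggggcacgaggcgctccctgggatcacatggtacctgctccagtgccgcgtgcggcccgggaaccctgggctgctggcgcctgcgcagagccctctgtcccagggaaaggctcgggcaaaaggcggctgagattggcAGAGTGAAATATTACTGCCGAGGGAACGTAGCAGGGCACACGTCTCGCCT
GALK1: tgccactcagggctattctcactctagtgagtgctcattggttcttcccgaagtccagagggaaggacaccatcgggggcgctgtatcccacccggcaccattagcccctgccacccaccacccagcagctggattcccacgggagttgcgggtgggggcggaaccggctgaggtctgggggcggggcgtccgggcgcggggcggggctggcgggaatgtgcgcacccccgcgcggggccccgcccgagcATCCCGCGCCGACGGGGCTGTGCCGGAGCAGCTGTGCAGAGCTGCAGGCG
TRIM25: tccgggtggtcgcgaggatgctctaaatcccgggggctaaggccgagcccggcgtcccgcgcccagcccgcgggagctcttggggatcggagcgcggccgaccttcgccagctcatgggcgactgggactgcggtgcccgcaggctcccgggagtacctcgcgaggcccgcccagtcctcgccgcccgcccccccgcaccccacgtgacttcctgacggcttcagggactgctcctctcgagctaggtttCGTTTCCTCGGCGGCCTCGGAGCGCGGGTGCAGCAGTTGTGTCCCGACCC
The peak of NR1D1 covered 266 of its 300 bases, that of GALK1 40 and the second peak of TRIM25 266. The 40 bases of GALK1 all lie after the start, which its peak did not reach. G and C made up 63% of the NR1D1, 71% of the GALK1 and 72.3% of the TRIM25 window, against a median of 61.3% over 1166 promoters of 17q. CpG pairs numbered 24, 27 and 37 in the same order, against a median of 18. The RUNX core TGTGGT, searched on both strands, was in none of the 3 windows and in 13.1% of 35116 RefSeq promoters of the same length. The E-box CACGTG was in the TRIM25 window alone and in 7.26% of all promoters. These matches are a description of letters and say nothing about binding.

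The log2 fold change of first-listed over second-listed H4K20me1 reads was lower over 17q than over 17p or the rest. The median log2 fold change was −0.18 on 17q (quartiles −0.45 and 0.06), 0.14 on 17p (−0.045 and 0.34) and 0.07 over all other sequences (−0.18 and 0.33). On 17q 639 peaks lay below 0, 285 above and 11 at 0, so that 68.3% were below, against 30.4% on 17p and 40.9% of all peaks. Summed over 17q, 119453 first-listed and 142231 second-listed reads gave a log2 ratio of −0.19 (exact Clopper-Pearson 95% interval −0.21 to −0.18). On 17p the sums were 10381 and 9671 reads and the ratio was 0.16 (0.12 to 0.20). Peaks of 17q thus held 4.28% of all reads in peaks of the first-listed group and 5.30% of those of the second-listed group. These intervals cover counting error only and hold no spread between libraries. No library without antibody was used here, so reads were not set against the amount of DNA at a locus.

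The peaks of 17q were also deeper and wider than those of 17p. The median peak of 17q held 88 first-listed and 112 second-listed reads, and that of 17p 70.5 and 69. Median width was 1163 bp on 17q, 942 bp on 17p and 1096 bp elsewhere. At or above the median signal of the table, 71.0 scaled reads, stood 65.6% of the 17q peaks, 49.1% of those of 17p and 49.6% of the rest. The low values were not limited to weak peaks. In the lowest quartile of signal the 17q median was −0.07, and in the other 3 quartiles it was −0.24, −0.19 and −0.18 from weaker to stronger. The 17p medians in the same quartiles were 0.10, 0.12, 0.19 and 0.185, and those of the rest 0.06, 0.03, 0.09 and 0.17. The gap between 17q and the rest was thus −0.13 in the weakest quartile and −0.35 in the strongest.

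**Figure D1:**
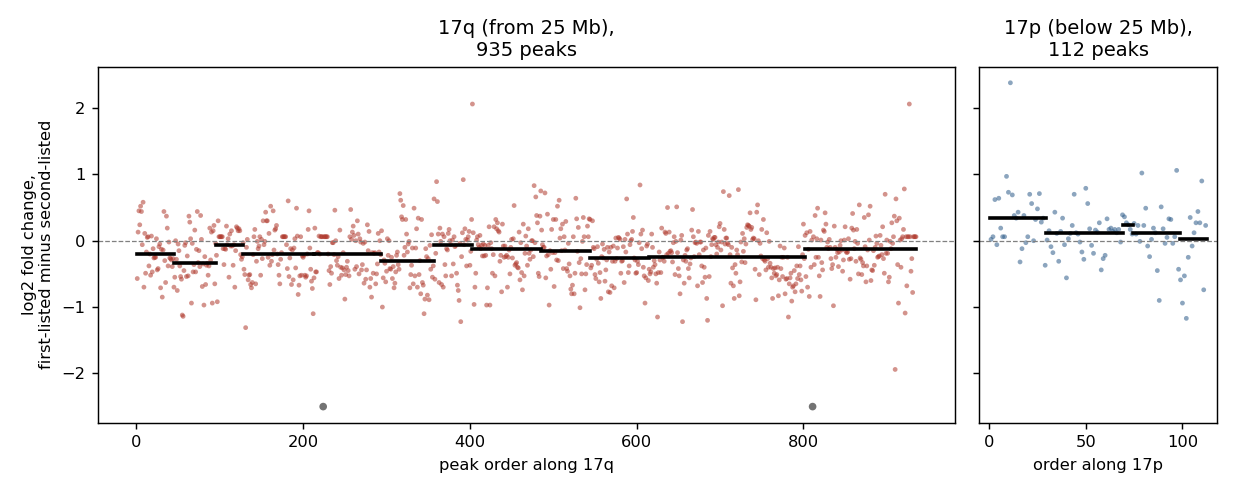
Each dot is 1 peak, in order along 17q (left) and 17p (right), with its log2 fold change, first-listed minus second-listed, on the vertical axis. Bars are medians of 5 Mb windows and black dots are 2 peaks below the lower limit of the axis. All 12 bars on 17q lie below 0 and all 5 on 17p above it.

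All 12 windows of 5 Mb along 17q had a median below 0, while all 5 windows of 17p had one above 0. Among all 512 windows with at least 10 peaks, 26.8% had a median below 0. Of 496 windows on other chromosomes, 28 (5.65%) stood at or under the 17q median. On 17q the window medians ran from −0.335 at 30 to 35 Mb to −0.06 at 35 to 40 Mb and again at 55 to 60 Mb. Summed reads gave a ratio of −0.27 in the lowest of these (4432 and 5575 reads, interval −0.33 to −0.22), −0.12 at 35 to 40 Mb (−0.18 to −0.06) and −0.08 at 55 to 60 Mb (−0.13 to −0.03). On 17p the medians ran from 0.34 in the first 5 Mb to 0.02 at 20 to 25 Mb. Values near the limit were mixed. The last peak of 17p, at 23190117 to 23190565, had 88 and 78 reads and a log2 fold change of 0.23, and the first of 17q, at 25920042 to 25920370, had 74 and 114 reads and −0.57. The next on 17q, at 26603681 to 26604331, had 495 and 470 reads and 0.13, and it opened a run of 5 peaks above 0 up to 27882917.

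Stretches of 1 Mb differed more. On 17p, where only 3 of them had 10 peaks or more, the stretch at 20 Mb had all 5 peaks below 0, a median of −0.59 and a ratio of −0.72 (107 and 183 reads, −1.08 to −0.37). Among 40 stretches of 17q with at least 10 peaks, 39 had a median below 0 and none reached the 17p median of 0.14. The lowest of these 40 were those at 40 Mb and 52 Mb, both at −0.51, at 30 Mb (−0.495) and at 79 Mb (−0.47). Stretches of 17q with fewer peaks lay on both sides of 0, some above the 17p median. That at 56 Mb, over TRIM25 and COIL, had 4 peaks, a median of 0.345 and a ratio of 0.42 (432 and 335 reads, 0.21 to 0.63). That at 53 Mb had all 5 peaks below 0, a median of −0.43 and a ratio of −0.52 (210 and 314 reads, −0.78 to −0.27). At 40 Mb 12 of 13 peaks lay below 0, over NR1D1, RARA, the retinoic acid receptor alpha, THRA, a thyroid hormone receptor, TOP2A, the topoisomerase that untangles chromosomes, CDC6, a loader of the replicative helicase, and SMARCE1, a subunit of SWI/SNF remodellers. RARA had 234 first-listed and 348 second-listed reads over 2 peaks, with log2 fold changes of −0.52 and −0.51. TOP2A had 93 and 156 reads, with −0.71 and −0.66. CDC6 had 92 and 144 reads in 1 peak, at −0.59. Only 2 Mb further along, the stretch at 42 Mb had a median of −0.01, with 2976 and 2959 reads over 19 peaks, of which 10 lay below 0. It holds RAB5C, a GTPase of early endosomes, and the STAT genes, which carry cytokine signals to the nucleus. STAT5B gave 0.11 (88 and 85 reads), STAT3 a mean of 0 over 3 peaks from −0.31 to 0.52, and STAT5A −0.37 (194 and 261 reads). Of the stretches with at least 10 peaks, that at 83 Mb was the 1 above 0, at 0.06. A peak of 1 read per group has that value by scaling alone. The summed ratio at 83 Mb was −0.47 (137 and 197 reads).

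The longest unbroken run below 0 on 17q counted 43 peaks in a row, from 79027449 to 79919383. It covered the whole of RBFOX3, which encodes the neuronal splicing factor NeuN, and the Polycomb genes CBX2 and CBX8, readers of methylated histone H3. The run had 6571 first-listed and 9561 second-listed reads, a median of −0.51 and a summed ratio of −0.48 (−0.53 to −0.44). Its 18 peaks not assigned to RBFOX3, 1 of them an intergenic peak amid those of that gene, had a median of −0.425 and a ratio of −0.43. As the run was picked for being below 0, these values only describe it. RBFOX3 itself had all 25 of its peaks below 0, from −1.15 to −0.08, with 4166 and 6182 reads. The longest run above 0 ended 224 kb before. It held 10 peaks over CYTH1, an exchange factor for ARF GTPases, and the near end of USP36, from 78722417 to 78803900, with 3190 and 2893 reads, a median of 0.20 and a ratio of 0.20 (0.12 to 0.27). The 15 peaks between the runs were mixed, with 9 below and 5 above 0. Another long run below 0 counted 27 peaks from 71979934 to 74053577, over SDK2, an adhesion molecule of synapses, and CDC42EP4, an effector of the GTPase CDC42. A shorter one counted 15 peaks from 30477403 to 31404412, over CRLF3, ATAD5, RNF135, NF1, EVI2B and others.

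Promoter and intergenic peaks of 17q were the lowest classes, and introns were closer to 0. The median was −0.22 in 451 promoter peaks, −0.24 in 123 distal intergenic peaks, −0.14 in 39 exon peaks and −0.10 in 287 intron peaks. On 17p the 74 promoter peaks had a median of 0.145, the 22 intron peaks one of 0.155 and the 8 intergenic peaks one of −0.055. Set against peaks of the same class elsewhere, 17q was lower by −0.32 in promoters, −0.21 in introns and −0.23 in intergenic peaks. Elsewhere promoters (0.10), exons (0.10) and introns (0.11) lay closer together, above intergenic peaks (−0.01), so that the order of classes was alike and their spacing differed. First introns of 17q had a median of −0.145 and later introns one of −0.08. Intergenic peaks 50 kb or farther from a start had −0.30 (39 peaks). The makeup of 17q also differed: promoters were 48.2% of its peaks, against 66.1% on 17p and 33.6% elsewhere, and intergenic peaks 13.2%, against 7.14% and 23.2%.

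**Figure D2:**
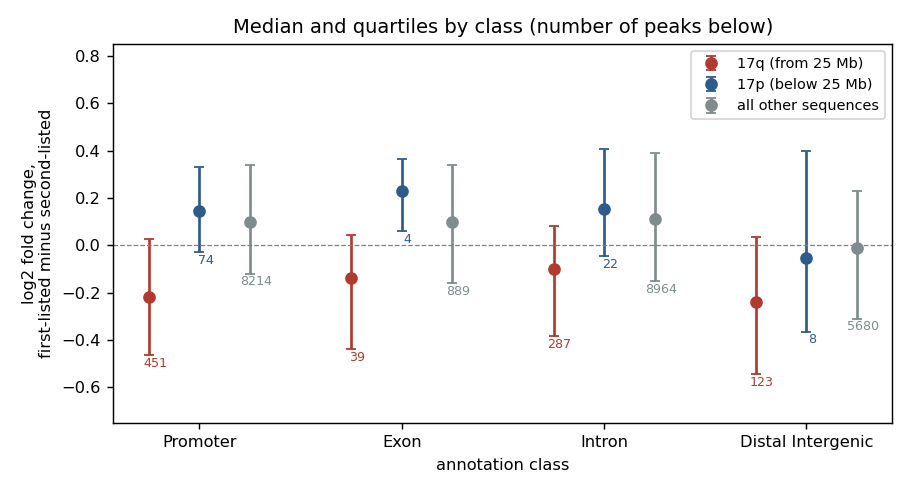
Median log2 fold change (points) and quartiles (bars) by annotation class for 17q, 17p and all other sequences, with the number of peaks under each bar. The 17q medians lie below those of the other sets in all 4 classes, from −0.10 in introns to −0.24 in intergenic peaks.

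Genes of 17q followed the same pattern. Of its peaks, 809 lay in a promoter, exon, intron or untranslated region of 402 genes, and 126 in no gene. The mean over a gene's peaks was below 0 in 294 of the 402 genes (73.1%), above 0 in 102 and 0 in 6, with a median of −0.20. On 17p 21 of 77 genes were below 0 and the median was 0.14, and of all 8728 genes with a peak 38% were below 0. On 17q 48 genes (11.9%) had a mean at or above 0.14, the median of 17p peaks. Of the 102 genes above 0, 10 had lowest-step peaks only, where both groups stand at the smallest value listed and the fold change of 0.06 comes from scaling. Such peaks numbered 25 on 17q, among them peaks of KANSL1, NSF, TBC1D3G, RNU2-1 and QTGAL. Several of these genes have near-identical copies between which reads could be split, which was not tested, so their values are uncertain.

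Genes with several peaks show how evenly the difference was spread. On 17q 78 genes had 3 or more peaks, of which 23 (29.5%) had all of them below 0 and 2 (2.56%) had all above 0. Among all 2016 such genes of the table, 6% had all peaks below 0 and 21.5% all above 0. The 23 genes included, beside RBFOX3 and SDK2 (8 peaks, −0.61 to −0.05), GGA3, CDC27, CDC42EP4, KIF18B, LUC7L3, NFE2L1, KAT7, BPTF and SUZ12. KIF18B, a kinesin of the mitotic spindle, had the lowest mean, −0.75 over 3 peaks, with 162 and 280 reads and a summed ratio of −0.73 (−1.02 to −0.45). CDC42EP4 had 475 and 718 reads (−0.54, −0.71 to −0.37), and GGA3, an adaptor for transport from the Golgi, had 648 and 946 reads over 5 peaks (−0.49, −0.64 to −0.34). CDC27, a subunit of the anaphase-promoting complex, had 442 and 642 reads over 4 peaks from −0.66 to −0.39. KANSL1, with a mean of −0.59, had 3 of 4 peaks at the lowest step and 4 and 9 reads in all, so its value rests on 1 peak of 1 and 6 reads.

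**Figure D3:**
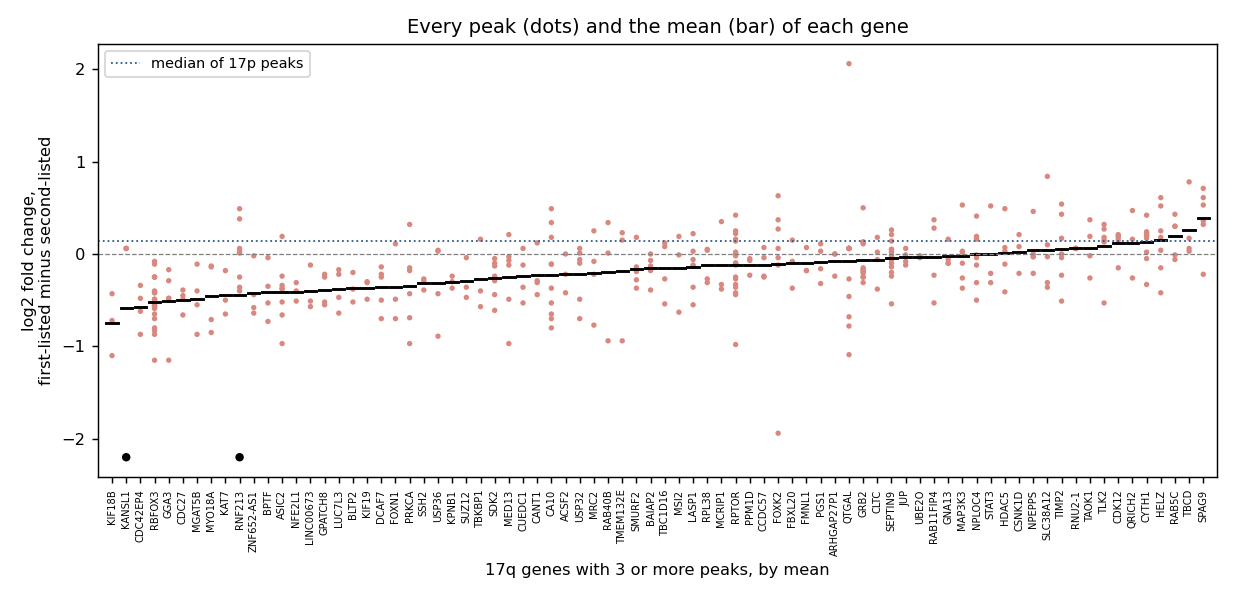
Log2 fold change of every peak (dots) and the mean (bars) of the 78 genes on 17q with 3 or more peaks, ordered by mean, with the median of 17p peaks as a dotted line. Black dots lie below the axis limit. The means run from −0.75 in KIF18B to 0.385 in SPAG9, and 4 of them (SPAG9, TBCD, RAB5C and HELZ) lie on or above the dotted line.

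Of the 78 genes with 3 or more peaks, 53 were mixed, with neither all peaks below 0 nor all above it. Those with the highest means come first here. SPAG9, a scaffold of JNK signalling, had the highest mean, 0.385, with 5 of 6 peaks above 0. It had 1259 first-listed and 1106 second-listed reads, a ratio of 0.24 (0.13 to 0.36), and the 1 peak below 0 (282 and 344 reads, −0.22) was a promoter peak at 51118764 to 51120704. Both other promoter peaks of SPAG9 lay above 0, at 0.71 (52 and 33 reads) and 0.61 (145 and 99). TBCD, a chaperone that folds tubulin, had all 4 peaks above 0 (0.03 to 0.78), with 307 and 283 reads and an interval of −0.06 to 0.41. The other gene with all peaks above 0 was RNU2-1, whose 4 peaks were at the lowest step. RAB5C had 1525 and 1374 reads over 5 peaks (0.21, 0.10 to 0.31), and CYTH1 3671 and 3507 over 10 (0.12, 0.06 to 0.19). HELZ, an RNA helicase, had a mean of 0.15 over 7 peaks but a summed ratio of −0.01, since its deeper peaks were not the higher ones. QRICH2 had a mean of 0.12 over 3 peaks, with 129 and 131 reads (0.03, −0.33 to 0.40). The genes with 12 or more peaks other than RBFOX3 had peaks on both sides of 0. RPTOR, the scaffold of mTORC1, had a mean of −0.12 over 19 peaks, 12 of them below 0, and a summed ratio of −0.13 (−0.22 to −0.03). SEPTIN9 had a mean of −0.04 over 16 peaks, 9 of them below 0, and a ratio of −0.06 (−0.12 to 0.00). GRB2, the adaptor that links receptors to RAS, had a mean of −0.07 over 12 peaks, 8 of them below 0, and a ratio of −0.03 (−0.09 to 0.04). QTGAL had the same mean over 12 peaks, but 5 of them were at the lowest step and its summed ratio was −0.58 (167 and 260 reads, −0.87 to −0.30).

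Ranked by single peaks of at least median signal, the lowest gene was NR1D1, which encodes the circadian repressor REV-ERBα. Its promoter peak at 40099227 to 40100805 had 50 first-listed and 129 second-listed reads, which is −1.31 on the log2 scale (interval −1.81 to −0.83). The promoter of GALK1, galactokinase, at 75763132 to 75765182 had 65 and 158 reads (−1.22, −1.66 to −0.80), and that of GGA3 at 75238621 to 75239234 had 75 and 173 (−1.15, −1.56 to −0.75). Next came intron 1 of 13 of RBFOX3 (99 and 229 reads, −1.15), intron 8 of 11 of RPTOR (51 and 105, −0.98) and 3 peaks at −0.97. These were the promoter of BRIP1, a helicase that works with BRCA1 (72 and 147 reads), exon 16 of 30 of MED13, a Mediator subunit (60 and 122), and the promoter of PRKCA, protein kinase C alpha (75 and 153). FADS6 (−0.94), SKA2 (−0.90), which joins kinetochores to the spindle, USP36 (−0.89), a nucleolar deubiquitinase, and COPZ2 (−0.88), a coatomer subunit, completed the 12. These intervals describe peaks picked as the lowest.

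At the other end of that ranking stood the promoter of TRIM25, a ubiquitin ligase of antiviral RIG-I signalling. Its peak at 56908151 to 56908916 had 107 and 60 reads (0.89, 0.42 to 1.37), and its second peak, which holds the start site shown above, had 207 and 142 (0.59, 0.29 to 0.92). An intron of SLC38A12 had 199 and 116 reads (0.84, 0.50 to 1.18). ARSG, a lysosomal sulfatase (105 and 70 reads, 0.64), CD300C, a receptor on myeloid cells (98 and 66, 0.63), FOXK2, a forkhead factor (104 and 70, 0.63), SPAG9 (145 and 99, 0.61) and HELZ (91 and 62, 0.61) followed. TIMP2, an inhibitor of metalloproteinases, and HGS, an endosomal sorting protein, both gave 0.54, STAT3 and NOTUM, which inactivates Wnt proteins, 0.52, and LLGL2, a cell polarity protein, 0.51. The highest of these values was smaller in size than the 10 lowest peaks at the other end. Outside genes, the intergenic peaks at 77771777 to 77773251 (72 and 148 reads, −0.98) and 77778782 to 77780210 (117 and 73 reads, 0.74) were neighbours and lay on opposite sides of 0.

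In the authors' deposited table, 47 of the 935 peaks (5.03%) had a negative and 4 (0.428%) a positive fold change with an unadjusted p under 0.05, against 1.69% and 3.37% of all peaks. The rule that chose 17q used the same contrast, so nothing is read from these shares. None had an adjusted p under 0.05, and the smallest in the authors' deposited table was 0.649. Of the 47 peaks, 26 were promoters, 9 introns and 8 intergenic, and those in genes belonged to 36 genes. The 4 higher ones were TRIM25, SLC38A12, the promoter of DHX40, a helicase (80 and 44 reads, 0.92), and a peak of 8 and 2 reads at MIR4737. The smallest unadjusted p in the authors' deposited table, 0.000738, belonged to an intron peak of RNF213 with 1 and 16 reads. On the log2 scale 16 peaks (1.71%) were lower by 1 or more and 2 (0.214%) higher by as much, against 0.909% and 1.55% of all peaks. Of these 16, 6 had at least median signal. Both higher ones, at 8 and 2 and at 4 and 1 reads, rest on a handful of reads.

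Genes of DNA replication, repair and mitosis had the lowest median of the lists examined on 17q. Of 34 listed genes 20 had a peak, 17 below 0 and 3 above, with a median of −0.45. Over all 402 genes of 17q the median was −0.20 and 73.1% were below 0. ATAD5, which unloads the sliding clamp PCNA from DNA, was lowest (35 and 80 reads, −1.14, −1.75 to −0.55). BIRC5, which encodes survivin, had 76 and 141 reads (−0.83), and SKA2 had 179 and 334 over 2 peaks (−0.84, −1.11 to −0.58). PSMC3IP, a recombination factor of meiosis, was highest at 0.18 (72 and 66 reads, −0.32 to 0.69). SPAG5 and POLG2, the accessory subunit of the mitochondrial polymerase, gave 0.05 and 0.07. The list was compiled with earlier results of these data known, and no test was made over it.

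Chromatin regulators had 23 of 29 genes measured, 19 below 0 and 4 above, with a median of −0.36. Over all genes of 17q the median was −0.20 and 73.1% were below 0. With peaks of at least median signal alone the list's median was −0.225. SMARCE1 was lowest (61 and 98 reads, −0.63, −1.11 to −0.15), and SMARCD2, of the same complex, had 187 and 291 (−0.59, −0.85 to −0.31). The Polycomb genes named here lay below 0. CBX8 gave −0.51 (190 and 282 reads), EZH1 −0.36 (45 and 60), SUZ12 −0.29 (177 and 223) and CBX2 −0.09 (136 and 151). The intervals of EZH1, SUZ12 and CBX2 held 0. H3-3B, which encodes histone H3.3, had 338 and 495 reads over 2 peaks (−0.49, −0.70 to −0.29), and KAT7, an acetyltransferase, 401 and 589 over 3 (−0.50, −0.68 to −0.31). MED13, which had the smallest unadjusted p of the list, ranged from −0.97 to 0.21 over 6 peaks. The 4 above 0 were HELZ, CDK12, a kinase of RNA polymerase II (5 peaks, mean 0.12 but a summed ratio of −0.06), TLK2, a kinase of chromatin assembly (1064 and 997 reads, ratio 0.15, 0.02 to 0.28), and HDAC5 (mean 0.01).

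Splicing, translation and ribosome genes had 20 of 30 measured, 17 of them below 0, and a median of −0.305. Over all genes of 17q the median was −0.20 and 73.1% were below 0. UTP6, of the small ribosomal subunit processome, was lowest (43 and 86 reads, −0.94, −1.51 to −0.40). The splicing factor gene SRSF2 had 304 and 490 reads (−0.63, −0.84 to −0.42), while SRSF1, of the same family, had 347 and 321 (0.17, −0.05 to 0.39). EFTUD2, a GTPase of the spliceosome, was highest (236 and 179 reads, 0.45, 0.17 to 0.74). Of 3 ribosomal protein genes with a peak, RPL27 gave −0.52, RPL38 a mean of −0.12 and RPL19 −0.08.

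Signalling genes had 19 of 23 measured members below 0 and 3 above, and a median of −0.16. Set beside them, 73.1% of all genes of 17q were below 0, with a median of −0.20. NR1D1 and CRLF3 (42 and 95 reads, −1.12, −1.68 to −0.58) were lowest, and ARHGDIA, an inhibitor of small GTPases, had 413 and 660 reads (−0.62, −0.80 to −0.44). AXIN2, an inhibitor of Wnt signalling, was highest at 0.40 (89 and 70 reads, −0.06 to 0.88). Metabolic and mitochondrial genes had 15 of 20 below 0 and a median of −0.14. Behind GALK1 stood 2 lysosomal enzymes, SGSH (75 and 140 reads, −0.84) and GAA (73 and 123 reads, −0.70), and AFMID, an enzyme of tryptophan breakdown, was highest (59 and 36 reads, 0.77, 0.15 to 1.41). Of 4 measured proteasome genes, PSMD3 gave −0.24 (120 and 147 reads, −0.60 to 0.12), PSMD12 and PSMD11 had means of −0.04 and −0.005 over 2 peaks each, and PSMB3 was at the lowest step.

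Genes of blood cells had 13 of 32 members measured, 8 below 0 and 4 above, with a median of −0.17. Set beside them, 73.1% of all genes of 17q were below 0, with a median of −0.20. Beside SRSF2, EVI2B, a surface protein of blood cells nested within NF1, had 72 and 109 reads (−0.54, −0.99 to −0.10), and GRN, progranulin, 260 and 390 (−0.52, −0.76 to −0.30). The CD300 cluster of myeloid receptors was mixed. CD300C gave 0.63, CD300LF a mean of 0.245 over 2 peaks, CD300A 0.02, CD300E 0, CD300LB −0.17 and CD300LD −0.22. Neuronal and glial genes had 14 of 27 measured, 10 of them below 0, and a median of −0.21. NPTX1, neuronal pentraxin, was lowest (91 and 170 reads, −0.84, −1.23 to −0.47), ASIC2, an acid-sensing channel, had 7 of 8 peaks below 0 (497 and 699 reads, −0.44, −0.60 to −0.27), and CACNG5 was highest (195 and 163 reads, 0.32, 0.01 to 0.62). Of 10 HOXB genes only HOXB7 had a peak (62 and 87 reads, −0.43, −0.93 to 0.05). Of 27 type I keratins KRT9 (65 and 106 reads, −0.65) and KRT28 (25 and 30 reads, −0.21) had one. None of 16 chemokine genes had a peak.

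**Figure D4:**
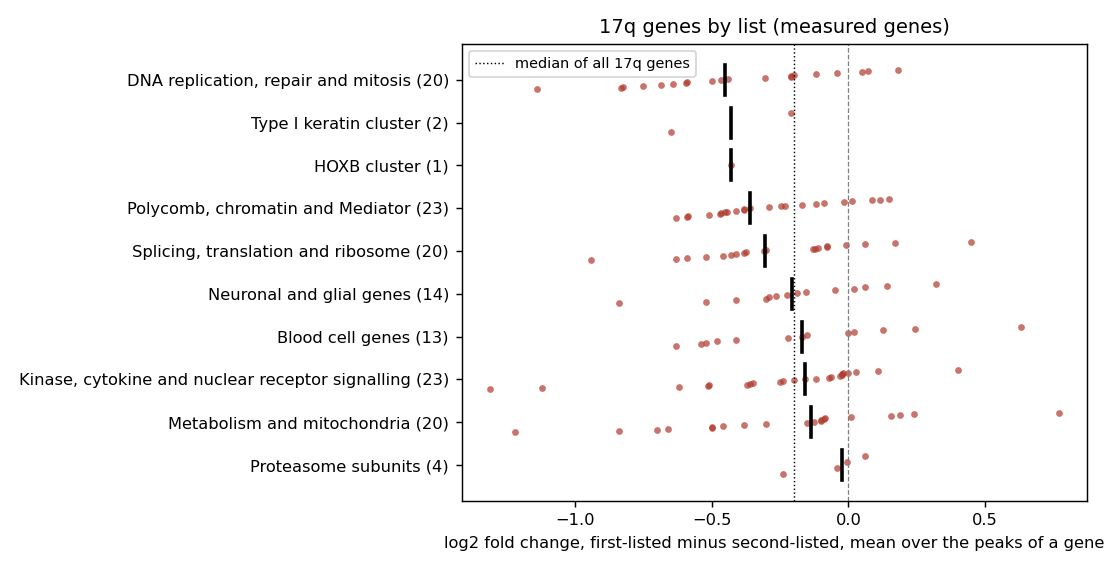
Mean log2 fold change over the peaks of each measured gene (dots) by list, with the list median (bar), 0 (dashed) and the median of all 402 genes of 17q (dotted, −0.20). The medians run from −0.45 for replication, repair and mitosis to −0.02 for the proteasome.

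Apart from the difference between the groups, 17q and 17p differed in how much of each carried a peak at all. Of 825 protein-coding genes of 17q, 358 had a peak in promoter or body (43.4%, exact 95% interval over genes 40.0 to 46.9). On 17p 69 of 344 did (20.1%, 16.0 to 24.7), and on all other chromosomes 7281 of 18887 (38.6%, 37.9 to 39.2). Counting promoters up to 1 kb alone, the shares were 31.4% on 17q, 13.4% on 17p and 26.3% elsewhere. Densities were taken per Mb of the span between first and last peak, with all coding genes of each part counted. Coding genes were then about as dense on both sides, 14.4 on 17q and 15.6 on 17p, while peaks numbered 16.4 and 5.09. Median gene length was also alike, 15.1 kb on 17q and 16.7 kb on 17p. Peaks were listed over both groups together, so these shares do not compare the groups, and genes are not independent of each other.

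**Figure D5:**
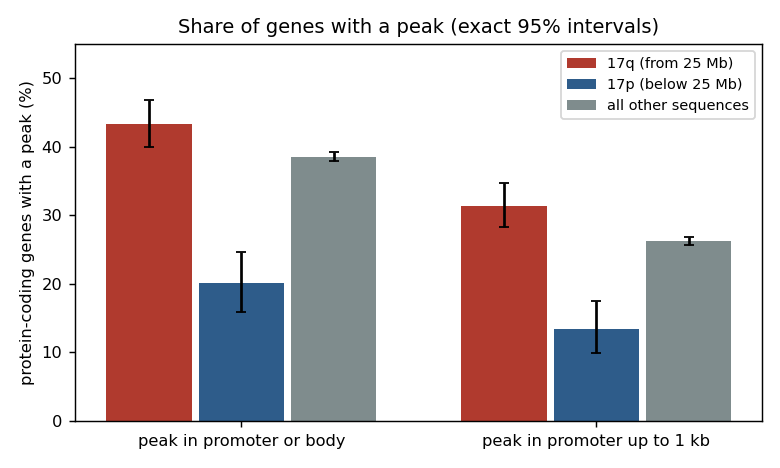
Share of protein-coding genes with a peak in promoter or body (left) or in the promoter up to 1 kb (right) on 17q, 17p and all other chromosomes, with exact 95% intervals over genes. The 17q bars stand at 43.4% and 31.4%, and the 17p bars at 20.1% and 13.4%.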

How the data were processed

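H4K20me1 CUT&Tag values came from 1 table of the whole series. The submitters' processing notes name Bowtie2, cutadapt and hg38 for all libraries and DESeq for 1 per group. Their versions, the peak caller and the libraries that make up a column were not given in the sources used here. The authors deposited log2 scaled reads per peak for each group, log2 fold changes and unadjusted and adjusted p-values. Columns are only numbered: in all 25514 peaks the fold change is, within 0.01, the first value column less the second. Low deposited log2 values equal whole reads times 1 factor per column (offsets 0 and −0.057, within 0.0051), from which reads were recovered, 2791207 and 2682916 in all. Reads of deep peaks are exact only to the rounding of the deposited values.

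Peaks in a promoter, exon, intron or untranslated region were given to the host gene the annotation names, otherwise to the nearest gene. Symbols were those of RefSeq (GRCh38.p14, 10031 of 10065 nearest genes matched). Intergenic and downstream peaks were given to no gene. Another 19 peaks on unplaced or alternate chromosome 17 sequences were not counted to 17q. Of 18 listed chemokine genes, 2 were not matched on 17q. Named were the 12 lowest and 12 highest genes at or above median signal, 1 peak each, without uncharacterized, long noncoding, small RNA and antisense genes, the 6 lowest and highest means of genes with 3 or more peaks, and the ends of each of 11 lists. Other genes were chosen after their values were seen. The members and lists were chosen with earlier results of these data known, and sequences of peaks were not used here. Some items are not reported here. With 1 column per group no test was made. Intervals printed here are exact Clopper-Pearson. Medians under changed settings were judged against order-statistic intervals over peaks or genes, which are not shown. For the difference of medians 2 such intervals were combined. They treat peaks and genes as independent. Calculations used Python 3.11.15, pandas 2.3.3 and scipy 1.17.1 and were tested on simulated data.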

Additional observations from a re-analysis of the deposited data

How the results depend on the processing

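The 17q median of −0.18 was −0.29 when both columns were scaled to the same total of reads and −0.24 without scaling, as each scaling shifts all peaks by 1 constant (−0.11 and −0.057 in log2). Scaling to 1 total likewise moved the promoter (−0.33), intron (−0.21) and intergenic (−0.35) medians, the share of peaks below 0 to 81.8% (74.3% without scaling), that of genes to 86.1%, and peaks lower by 1 or more from 16 to 32. It leaves the difference from 17p at −0.32, which was −0.25 against all other chromosomes. At or above median signal 71.9% of peaks lay below 0, 6 were lower and 0 higher by 1 or more, and 31 lower and 2 higher peaks in the authors' deposited table passed an unadjusted p of 0.05; the cause was not tested beyond the smaller number of peaks, 613. At an unadjusted p under 0.01 these numbered 11 and 0, at an adjusted p under 0.05 0 and 0. At a size of 0.5, 200 peaks were lower and 34 higher. Promoters up to 1 kb alone gave peaks to 31.4% of coding genes on 17q and 13.4% on 17p. In all, 37 of 60 values stayed within the interval or 1.5 times of the reported one. Among them were those without lowest-step peaks, from 30 Mb on, and, chosen after seeing the data, without RBFOX3 (median −0.17). No median or difference of medians changed sign, while counts and shares could not. Both scalings only lowered medians that were already below 0, so these could not change sign there. Scaling to 1 total shifted each list median by the same −0.11, to −0.47 (chromatin), −0.27 (signalling), −0.28 (blood), −0.32 (neuronal) and −0.25 (metabolism). The chromatin median was −0.225 at or above median signal and the metabolism median −0.215 by nearest gene. All 7 medians of lists with 5 or more genes stayed below 0 throughout. No paired analysis was possible because the table holds 1 column per group, and for the same reason no library could be left out. Depth limits single peaks most: the median peak of the table had 72 reads per group.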
